A study of Mus musculus with 16 samples.

Results

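The response described here is that of mesodermal cells to 4 h of activated Notch1 while protein synthesis was blocked. It was read from 4 of the 16 arrays of the series, chosen by their labels. EB5 NERT mesodermal cells treated with OHT and CHX together gave 2 arrays, and the same cells treated with CHX alone gave 2. NERT mesodermal cells with OHT alone and untreated NERT mesodermal cells, with 2 arrays each, served to compare the response without CHX. EB5 is a mouse embryonic stem cell (ESC) line. NERT is a fusion of murine Notch1IC, the active inner part of the receptor, with a steroid hormone-binding domain. It was expressed from the pCAG vector, and 4-hydroxytamoxifen (OHT, 1 µM) activates it. Cycloheximide (CHX, 50 µg/ml) was given for 4 h together with OHT. Cells of all 8 arrays had been differentiated for 4 d on collagen IV in medium with FCS and carried NERT, so the cells without OHT express the inactive fusion as well. The series holds no array of EB5 control cells, which carry the empty vector, with OHT and CHX. An effect of OHT itself under CHX therefore cannot be told apart from one through NERT. The labels do not say whether 2 replicates came from separate cultures, and the p-values therefore reflect no more than array-to-array spread, which may be technical.

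Notch receptors are cut when a ligand on a neighbouring cell binds them, and the freed intracellular domain joins the DNA-binding protein RBP-J and Mastermind proteins in the nucleus, where the complex activates transcription. The best known targets are the Hes and Hey genes, which encode basic helix-loop-helix repressors, and several genes that feed back on the pathway. A transcript that responds while no new protein can be made does not need a newly made intermediate factor, which is the question that the CHX arrays address. CHX also raises many short-lived transcripts by itself, so each OHT response is given beside the level with CHX alone.

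Values are expression intensities of Affymetrix probe sets, and a gene is represented by its probe set with the highest mean. Differences are given on the scale of log2 of the intensity plus 25, which understates changes of dim genes, with the standard error of limma and a p-value adjusted over all 23971 probe sets tested. A gene is called changed at an adjusted p under 0.05. Levels are not compared between genes.

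OHT raised far more genes than it lowered under CHX. Of 12188 genes tested, 90 rose (0.738%) and 7 fell (0.0574%), and in every one of them both arrays with OHT and CHX lay beyond both arrays with CHX alone. Over probe sets, 136 rose (0.567%) and 12 fell (0.0501%). The median difference over all genes was 0.01, and 51.0% of genes were above 0. Among the 90 genes, 33 had a further tested probe set, and 46 of these 47 further probe sets were above 0, of which 26 were themselves called higher.

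**Figure D1:**
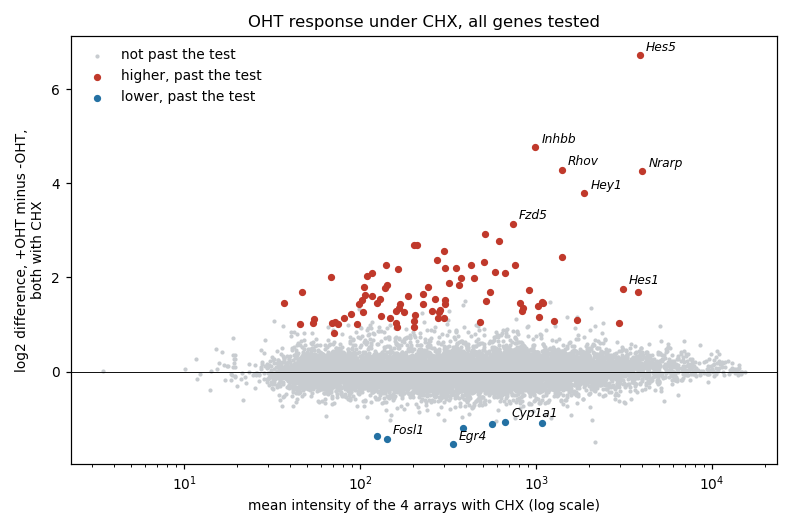
Log2 difference with OHT and CHX minus CHX alone (vertical axis) against the mean intensity of the 4 arrays with CHX (horizontal axis, log scale), each point a gene. The 90 genes called higher (red) reach 6.71 for Hes5, while the 7 called lower (blue) end at -1.54 for Egr4.

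The arrays with OHT and CHX disagreed with each other more than other replicates did. The root mean square log2 distance between their 2 replicates was 0.39, against 0.28 between the replicates with CHX alone, 0.33 with OHT alone and 0.24 in untreated cells. Replicate 1 with OHT and CHX lay at least 1 log2 unit below the other 3 arrays with CHX for 101 probe sets, and replicate 2 for 2. Kdm6b, a histone demethylase gene picked after its values were seen, had 308 on replicate 1 and 2881 on replicate 2 with OHT and CHX, and 2728 and 2785 with CHX alone. Without replicate 1 with OHT and CHX, 120 probe sets rose and 3 fell. Without replicate 2, which leaves replicate 1 alone to stand for its group, 230 rose and 381 fell. Leaving out replicate 1 or replicate 2 with CHX alone gave 80 or 89 rises and 2 or 3 falls. Of the 136 rises, 58 passed with each of the 8 arrays left out, and of the 12 falls 1 did.

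The labelled cell type was checked against markers. Kdr, which encodes Flk1, had 236 and 274 with OHT and CHX, and 462 and 322 with CHX alone. On the 4 arrays without CHX it had 173 to 277. T (Brachyury), also listed as an early mesoderm marker, was not found under that symbol and is not in the sum below. The summed intensity of 9 early mesoderm genes was 1202 and 1525 with OHT and CHX and 1500.3 and 1293 with CHX alone, against 4367 to 5259.8 on the 4 arrays without CHX, and Lhx1 was under 50 on all 4 arrays with CHX. The sum of 6 pluripotency genes was 12742 and 13552 with OHT and CHX, and 9832 and 11515 with CHX alone. Sox2 and Nanog carried this gap, since Klf4 was lower on both arrays with OHT and CHX (442 and 518, against 607 and 527 with CHX alone) and Pou5f1, Zfp42 and Esrrb overlapped. Of 7 blood and endothelial markers, Cdh5, Pecam1 and Hbb-bh1 were under 50 on all 8 arrays, and the sum was 772 and 657 with OHT and CHX and 645 and 709 with CHX alone. For 6 neuroectoderm genes the sum was 1613 and 2743 with OHT and CHX, and 2382 and 2139 with CHX alone. It was 786 to 1409 on the 4 arrays without CHX. For 6 endoderm genes it was 583 and 403, 458 and 377, and 130 to 310 in the same order. For 4 mural genes it was 3926 and 5643, 4932 and 4793, and 4345 to 5107. In bulk RNA, fewer cells of a type and less RNA per cell cannot be told apart, and the part of these marker levels in the comparisons below was not tested.

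Promoter sequences show the DNA that RBP-J can recognise in some of the strongest responders. The core of its recognition sequence, TGGGAA, reads TTCCCA on the other strand, and no 2 matches of either can overlap. It was searched on both strands in RefSeq promoters (GRCm38.p6) that run from 250 bases before to 50 bases after the start of a gene. Of the 24 largest rises 20 had such a promoter, while Hey1, Fjx1, Heyl and Sox9 had none. The promoters of Inhbb, Rhov, Nrarp, Fzd5, Spib, Cxcl1, Jag1, Efna1 and Notch1 lacked the core. The other 11 of the 20 held the core. The 6 with the largest rises among these 11 are shown, and they are also the 6 that held the core more than once. Each runs from up to 20 bases before its first core to 20 bases after the last core shown. No stretch goes more than 20 bases past the start. Sequences are in the direction of transcription, with the core in capitals.

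Hes5, chr4:154960677-154960866, plus strand: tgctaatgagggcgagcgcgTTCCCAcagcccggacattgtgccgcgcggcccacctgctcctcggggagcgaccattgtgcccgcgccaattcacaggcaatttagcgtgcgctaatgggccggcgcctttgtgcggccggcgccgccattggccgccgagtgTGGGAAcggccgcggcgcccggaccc
Hey2, chr10:30842764-30843010, minus strand: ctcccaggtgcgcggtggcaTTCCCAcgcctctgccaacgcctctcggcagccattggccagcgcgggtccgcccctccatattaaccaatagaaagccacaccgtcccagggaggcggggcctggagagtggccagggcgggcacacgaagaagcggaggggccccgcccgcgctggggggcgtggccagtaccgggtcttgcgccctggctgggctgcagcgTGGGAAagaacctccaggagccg
Lfng, chr5:140607186-140607258, plus strand: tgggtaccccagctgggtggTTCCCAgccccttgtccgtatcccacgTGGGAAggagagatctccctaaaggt
Gucy1a1, chr3:82145108-82145203, minus strand: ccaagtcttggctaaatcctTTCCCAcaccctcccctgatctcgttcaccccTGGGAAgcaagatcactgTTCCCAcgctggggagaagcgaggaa
Tns2, chr15:102102684-102102868, plus strand: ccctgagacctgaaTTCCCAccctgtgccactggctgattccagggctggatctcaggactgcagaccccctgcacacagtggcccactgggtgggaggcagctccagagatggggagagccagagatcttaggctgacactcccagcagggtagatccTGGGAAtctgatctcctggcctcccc
Ehd3, chr17:73804663-73804729, plus strand: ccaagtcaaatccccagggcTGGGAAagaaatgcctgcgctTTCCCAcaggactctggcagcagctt

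Each of these 6 promoters held the core in both orientations. In Hes5 the cores began at positions -226 and -82 relative to the start, in Hey2 at -207 and -3, in Lfng at -135 and -108, in Tns2 at -236 and -91 and in Ehd3 at -158 and -137. Gucy1a1 held 4 cores, of which the last, at 28 past the start, is not shown. Both cores of Hes5 and both of Hey2 were part of a longer form, CGTGGGAA or TGTGGGAA, as were 1 core of Lfng, 2 of Gucy1a1 and 1 of Ehd3. The core was present in 25.6% of all 32851 promoters of the RefSeq table and the longer form in 2.57%. Of the 9819 tested genes with a promoter 26.7% held the core, and of the 69 risen genes with a promoter 33 did (47.8%). More than 1 core was found in 4.39% of the tested genes and in 10.1% of the risen ones, and the longer form in 3.31% and 8.70%. None of the 6 fallen genes with a promoter held the core. These are counts of letters in promoters of 300 bases, with no test. Where a gene had several promoters, the highest count of any of them was taken, whereas 25.6% and 2.57% are shares of promoters. Whether risen genes had more promoters each than the tested genes was not counted.

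The Hes, Hey and related repressors gave the highest median difference of any gene list. Of 12 listed genes 11 were on the array and 8 passed the filter on low intensity, with a median of 2.22, against 0.01 over all genes, and 5 rose. Heyl passed the filter only through its groups with OHT. Listed genes that stayed dim in every group were dropped, which favours a high median. Hes5 had 7343 and 8119 with OHT and CHX, against 66.4 and 34.6 with CHX alone. The difference was 6.71 ± 0.22 (adjusted p = 2.24e-07), the largest of all genes, and a second probe set of Hes5 gave 6.05 ± 0.22. Hey1 had 2806 and 4239 with OHT and CHX, against 240.2 and 215 with CHX alone, and Hey2 had 967 and 1208 against 122 and 152. Both Hey genes were separated by several fold, with differences of 3.79 ± 0.21 for Hey1 (adjusted p = 6.98e-06) and 2.78 ± 0.24 for Hey2 (adjusted p = 0.000332). Heyl had 267 and 498 with OHT and CHX, against 36.5 and 34.8 with CHX alone, and its replicates with OHT differed from each other more than those of Hey2 (2.69 ± 0.25, adjusted p = 0.000499).

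Hes1, an oscillating repressor that represses its own gene, had 3785 and 5836 with OHT and CHX, against 1071 and 1754 with CHX alone (1.76 ± 0.26, adjusted p = 0.00894). Without CHX its level was flat, with 328 and 340.4 with OHT alone and 352 and 299 in untreated cells. The response of Hes1 was 1.72 ± 0.36 higher with CHX than without, which did not pass the test of the difference (adjusted p = 0.34). Its rise under CHX was lost without replicate 1 with CHX alone (adjusted p = 0.106). The remaining members of the list were not called. Hes7, the repressor of the segmentation clock, had 287 and 351 with OHT and CHX and 184 and 185 with CHX alone (adjusted p = 0.268), and Bhlhe40 had 1662 and 2163, against 1254 and 1179 (adjusted p = 0.465). Hes6, which antagonises Hes1, overlapped between the groups.

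**Figure D2:**
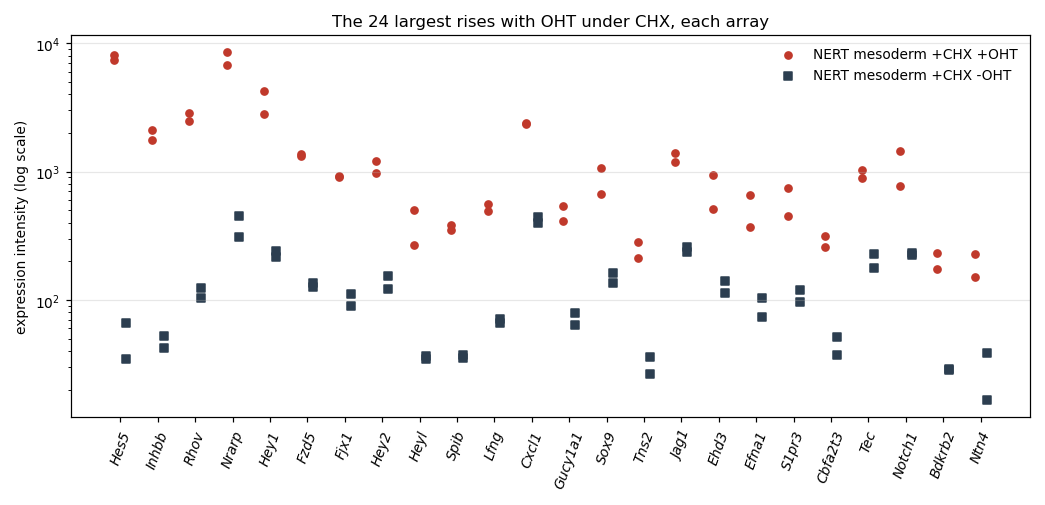
Intensity (vertical axis, log scale) of the 24 genes with the largest rises on each of the 4 arrays with CHX, ordered by log2 difference, with OHT and CHX as red circles and CHX alone as dark squares. In each of the 24 genes both red circles lie above both dark squares. Inhbb, Heyl, Spib, Cbfa2t3, Bdkrb2 and Ntn4 passed the filter on low intensity only through arrays with OHT.

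Genes that feed back on the Notch pathway rose beside the repressors, while the core machinery mostly did not pass the test. Nrarp, which encodes a protein that binds the Notch intracellular domain and dampens the signal, had 6806 and 8474 with OHT and CHX, against 450.4 and 311 with CHX alone (4.25 ± 0.21, adjusted p = 2.98e-06). Lfng, which encodes a glycosyltransferase that modifies Notch receptors, had 492 and 562, against 66.4 and 70.6 with CHX alone (2.56 ± 0.18, adjusted p = 5.4e-05). Of 17 tested modulators 3 rose, the third being Dtx1, which encodes the Notch-binding ubiquitin ligase Deltex, and their median was 0.04. Dtx1 had 236 and 312 with OHT and CHX and 133 and 125 with CHX alone. At an adjusted p of 0.0481 Dtx1 was near the threshold, and it kept its call only where replicate 1 with OHT and CHX was the array left out (largest adjusted p = 0.296).

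Of 10 receptors and ligands tested, 2 rose. Jag1, a Notch ligand, had 1176 and 1383 with OHT and CHX, against 258 and 235 with CHX alone (2.26 ± 0.18, adjusted p = 0.000144). Its other tested probe sets gave 1.31 ± 0.31 (adjusted p = 0.153) and 0.26 ± 0.16 (adjusted p = 0.940). Notch1 had 769.6 and 1441 with OHT and CHX, against 223 and 233 with CHX alone (2.09 ± 0.25, adjusted p = 0.00223). A second Notch1 probe set gave 1.78 ± 0.27. Whether either reads the NERT transcript as well was not tested. In the cleavage and nuclear complex list 1 of 13 rose, Aph1b, which encodes a subunit of gamma-secretase, with 188 and 235 with OHT and CHX and 106 and 61.6 with CHX alone (adjusted p = 0.0464). By this probe set Aph1b kept its call only where replicate 1 with CHX alone was the array left out (largest adjusted p = 0.320). A second Aph1b probe set gave 221 and 204 with OHT and CHX, against 89.95 and 72.2 with CHX alone (1.17 ± 0.16, adjusted p = 0.00693). Rbpj, encoding RBP-J itself, overlapped between the groups, with 2245 and 2573 with OHT and CHX and 1976 and 2815 with CHX alone.

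Among the lineage factors that the study followed, Sox9 and Myf5 rose. This list was chosen by the study on these samples, so its count is not independent evidence. Sox9, which directs cartilage and neural crest fates, had 671 and 1059 with OHT and CHX, against 161 and 135 with CHX alone (2.33 ± 0.23, adjusted p = 0.000684). Myf5, a determination factor of skeletal muscle, was dim, with 89.3 and 79.2 with OHT and CHX, against 12.3 and 5.74 with CHX alone (1.69 ± 0.16, adjusted p = 0.000527). Myf5 passed the filter on low intensity only through groups with OHT. Id4 encodes an inhibitor of basic helix-loop-helix factors. It had 2103 and 2661 with OHT and CHX, against 1060.05 and 1031 with CHX alone, with no overlap between the groups and an adjusted p of 0.0803. Id1 had 5870 and 7387, against 2447 and 4585 (adjusted p = 0.341), and Id2 lay on the other side, with 3748 and 4737, against 6497 and 6438 with CHX alone (adjusted p = 0.913).

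Pax6, an eye and forebrain factor, had 166 and 147 with OHT and CHX and 128 and 127 with CHX alone (adjusted p = 0.942). Runx1, a regulator of blood formation, was read by several probe sets that did not behave alike. The brightest gave 195 and 219 with OHT and CHX and 159 and 216 with CHX alone, which overlap. Another Runx1 probe set gave 346 and 237, against 86.7 and 66.1 with CHX alone (1.63 ± 0.25, adjusted p = 0.0112).

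Several of the largest rises belonged to secreted factors and receptors. Inhbb, which encodes the beta B subunit of activins and inhibins, had 1766 and 2108 with OHT and CHX, against 51.9 and 42.0 with CHX alone (4.77 ± 0.18, adjusted p = 3.84e-07). A second, dim probe set of Inhbb gave 110 and 99.2, against 47.7 and 71.8 (0.63 ± 0.19, adjusted p = 0.388). Of 13 tested genes of the nodal and activin pathway the other one to rise was Dand5, which encodes a nodal antagonist, with 110.2 and 158 with OHT and CHX, against 37.8 and 47.2 with CHX alone (adjusted p = 0.0335). Dand5 lost its call without replicate 1 or replicate 2 with CHX alone (adjusted p = 0.333 and 0.133), without replicate 2 with OHT and CHX (0.068) and without replicate 1 or replicate 2 with OHT alone (0.0572 and 0.0596). Nodal itself had 5587 and 6911 with OHT and CHX and 3816 and 4084 with CHX alone (adjusted p = 0.23). Dand5, and Inhbb by its first probe set, passed the filter on low intensity only through groups with OHT.

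Fzd5, a receptor for Wnt proteins, had 1327 and 1367 with OHT and CHX, against 126 and 134 with CHX alone (3.14 ± 0.16, adjusted p = 4.06e-06). It was the only one of 22 tested Wnt pathway genes to rise. Fjx1, which encodes a secreted glycoprotein of the four-jointed family, had 928 and 914, against 111 and 90.4 with CHX alone (2.92 ± 0.18). Cxcl1, a chemokine that attracts neutrophils, had 2406 and 2359, against 441 and 397 with CHX alone (2.44 ± 0.18), and no other of the 15 tested NF-kB genes was called.

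Efna1, an ephrin that binds Eph receptors on adjoining cells, had 372 and 658 with OHT and CHX, against 73.5 and 104 with CHX alone (2.21 ± 0.30, adjusted p = 0.00597). Of the 24 largest rises it was the only one to lose its call with an array left out, which happened without replicate 1 with CHX alone (adjusted p = 0.0997). Efna3 and Efna4 were also apart between the groups but missed the threshold (adjusted p = 0.0653 and 0.185), although Efna3 passed without replicate 1 or replicate 2 with OHT alone (0.0345 and 0.0349). S1pr3, a receptor for sphingosine 1-phosphate, had 740.4 and 449 with OHT and CHX, against 119 and 95.5 with CHX alone (2.19 ± 0.23). Bdkrb2, the bradykinin B2 receptor, had 174 and 234, against 28.7 and 28.3 (2.09 ± 0.18). Ntn4, which encodes a laminin-related netrin, had 150.4 and 229, against 38.9 and 16.6 (2.04 ± 0.23). In all of these the lower array with OHT and CHX was well above the higher array with CHX alone. Bdkrb2 passed the filter on low intensity only through the arrays with OHT and CHX, and Ntn4 only through groups with OHT. For these genes the filter favours this order.

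The remaining large rises were of intracellular proteins. Rhov, an atypical small GTPase, had 2477 and 2877 with OHT and CHX, against 123 and 103 with CHX alone (4.29 ± 0.21, adjusted p = 2.98e-06). Spib, an Ets factor of lymphoid cells, had 351 and 381, against 36.9 and 35.1 (2.68 ± 0.25). Cbfa2t3, a corepressor, had 312 and 258, against 37.0 and 51.1 (2.17 ± 0.17). In none of these 3 did the groups come close to each other, although Spib and Cbfa2t3 passed the filter on low intensity only through groups with OHT. Gucy1a1, a subunit of the nitric oxide receptor guanylate cyclase, had 536 and 410.2, against 78.5 and 64.2 with CHX alone (2.36 ± 0.18). Its other tested probe sets gave 1.53 ± 0.16 (adjusted p = 0.000992) and 0.39 ± 0.17 (adjusted p = 0.834). Tns2, a tensin of focal adhesions, had 213 and 282, against 26.4 and 36.0 (2.27 ± 0.18). Ehd3, an endocytic recycling ATPase, had 946 and 515 with OHT and CHX, against 140.3 and 114 with CHX alone (2.26 ± 0.25). A second Ehd3 probe set gave 93.55 and 101, against 74.0 and 75.8 (0.29 ± 0.16, adjusted p = 0.932). Tec, a tyrosine kinase, had 1023 and 898, against 227 and 178 (2.12 ± 0.19).

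The 7 genes that fell were all high with CHX alone. Egr4, a zinc finger factor of the immediate early class, had 229 and 104 with OHT and CHX, against 570.3 and 442 with CHX alone (-1.54 ± 0.27, adjusted p = 0.033), and stayed under 10 on the 4 arrays without CHX. Fosl1, a subunit of AP-1, had 50.5 and 80.3, against 246 and 187 with CHX alone (-1.43 ± 0.21, adjusted p = 0.0095). Egr4 and Fosl1 were the only 2 of 21 tested immediate early genes to be called, and the median of that list was -0.20. Fos had 1901 and 2817, against 3656 and 3531 with CHX alone (adjusted p = 0.473), and passed only without replicate 2 with OHT and CHX (0.0327).

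Cyp1a1, a target of the aryl hydrocarbon receptor, had 367 and 479.8 with OHT and CHX, against 889 and 928 with CHX alone, and 24.99 to 37.2 on the arrays without CHX. Ddit3, a stress factor also called Chop, had 596 and 774, against 1644 and 1334 with CHX alone, and Edn1, the endothelin 1 precursor gene, had 174 and 282, against 589 and 497. Their differences were -1.07 ± 0.20 for Cyp1a1, -1.10 ± 0.20 for Ddit3 and -1.19 ± 0.21 for Edn1. Dlx2, a homeobox gene of forebrain and neural crest, had 39.95 and 77.5, against 233 and 147 with CHX alone (-1.37 ± 0.24). In each of the 7 genes both arrays with CHX alone lay above both untreated arrays. For Egr4, Fosl1, Dlx2 and Cyp1a1 the filter on low intensity largely set this order, since neither group without CHX reached a mean of 50. The share of all genes with this order was not counted for comparison. Sema3c, a secreted guidance cue, was the only one of the 7 that also fell without CHX. It had 344 and 346 with OHT and CHX, against 754 and 793 with CHX alone (-1.11 ± 0.17, adjusted p = 0.0112), and 37.7 and 49.8 with OHT alone, against 137 and 145 in untreated cells (-1.28 ± 0.17, adjusted p = 0.00504).

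The falls were less firm than the rises. None of the 7 passed without replicate 1 with CHX alone (adjusted p from 0.115 to 0.397), Fosl1 and Dlx2 passed without replicate 2 with CHX alone, and Egr4 alone passed without replicate 1 with OHT and CHX, while all 7 passed without replicate 2 with OHT and CHX. Fosl1 and Sema3c passed without either replicate with OHT alone, and Egr4, Fosl1, Dlx2 and Sema3c without either untreated replicate. All 7 kept their direction in each of these fits.

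**Figure D3:**
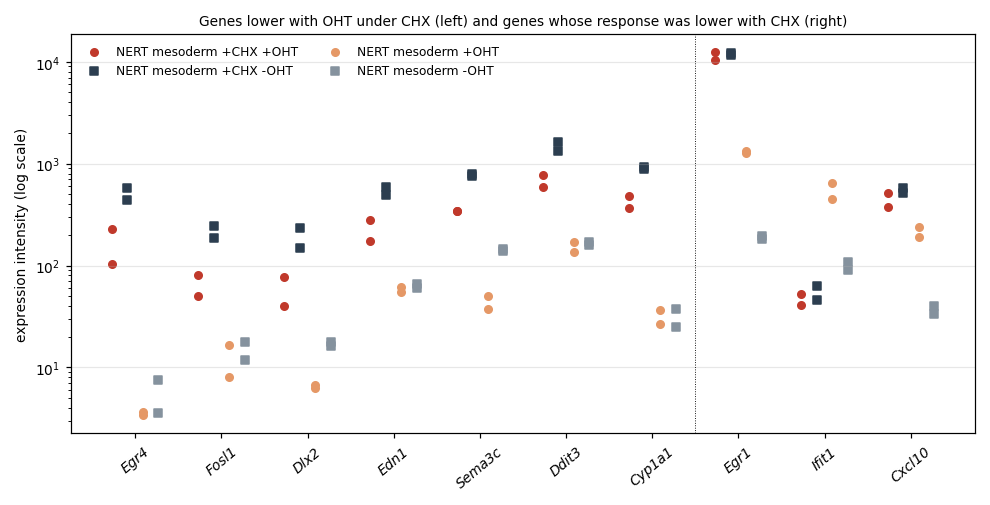
Intensity (vertical axis, log scale) on each of the 8 NERT mesoderm arrays of the 7 genes that fell under CHX (left of the dotted line) and of the 3 genes whose OHT response was lower with CHX than without (right). For the 7 genes the arrays with OHT and CHX (red) lie below those with CHX alone (dark squares), and both lie above the arrays without CHX. Egr4, Fosl1, Dlx2 and Cyp1a1 passed the filter on low intensity only through the arrays with CHX.

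About as many rises passed the test without CHX as did not, and of the 7 falls 1 passed. Of the 90 risen genes 85 were above 0 without CHX, against 37.9% of all genes, and 47 passed the test there, where 91 of all genes rose (0.747%) and 47 fell (0.386%). In 76 of the 90 both arrays with OHT alone lay above both untreated arrays, as they did in 13.5% of all genes. Their median difference was 1.53 with CHX, the contrast that chose them, and 1.10 without it. Of the 24 largest rises 18 passed without CHX. In 23 the difference was larger with CHX, but the 24 were ranked by their response with CHX, which favours this outcome. Only 5 genes passed the test of the difference between the responses, 2 higher with CHX (0.0164% of genes) and 3 lower (0.0246%). Over probe sets 3 were higher and 3 lower (0.0125% each). An unadjusted p under 0.05, which many genes reach where no response differs, was found for 684 of the 12188 genes tested.

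Inhbb and Fzd5 responded more with CHX. Without CHX, Inhbb had 145 and 144 with OHT alone, against 28.9 and 41.6 in untreated cells, and its response was 3.27 ± 0.26 higher with CHX (adjusted p = 0.00119). Fzd5 had 241 and 235 with OHT alone, against 167 and 154 in untreated cells, a response of 0.51 ± 0.16 that was 2.64 ± 0.23 lower than with CHX (adjusted p = 0.00193). The second probe set of Hes5 was the third probe set of this kind, with 2.64 ± 0.31 (adjusted p = 0.0242), while its brightest gave 1.78 ± 0.31 (adjusted p = 0.155). Cbfa2t3, Bdkrb2 and S1pr3 had responses under 0.5 without CHX and just missed or missed the test of the difference (adjusted p = 0.0515, 0.0586 and 0.155).

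Egr1, Ifit1 and Cxcl10 responded less with CHX by the same test. The highest intensity of any probe set was 16397 to 16997 on the 4 arrays with CHX. Egr1, an immediate early zinc finger factor, was within 2-fold of it there, and whether this limited a further rise was not tested. It had 10434 and 12439 with OHT and CHX and 11723 and 12159 with CHX alone, whereas it had 1329.9 and 1273 with OHT alone, against 195 and 184 in untreated cells (difference of the responses -2.70 ± 0.20, adjusted p = 0.00119). Ifit1, an interferon-induced gene, had 40.6 and 52.7 with OHT and CHX and 62.4 and 45.5 with CHX alone, whereas it had 450.3 and 647 with OHT alone, against 89.9 and 108 in untreated cells (-2.33 ± 0.30, adjusted p = 0.0395). Cxcl10, an interferon-induced chemokine, had 511 and 377 with OHT and CHX and 572 and 519 with CHX alone, whereas it had 189 and 240.3 with OHT alone, against 40.01 and 33.2 in untreated cells (-2.25 ± 0.28, adjusted p = 0.0395). Egr1 and Cxcl10 stood higher with CHX alone than with OHT alone, and Ifit1 lower. The differences of Ifit1 and Cxcl10 each failed the test in 6 of the 8 fits that left out an array (adjusted p up to 0.327). Ifit1 passed only without replicate 1 with OHT alone or replicate 2 with OHT and CHX, and Cxcl10 only without replicate 1 or replicate 2 with OHT and CHX. Dand5 and Dusp2, a phosphatase of MAP kinases, had smaller responses with CHX (1.22 ± 0.22 and 1.43 ± 0.21) than without (3.18 ± 0.22 and 2.62 ± 0.21), and neither passed the test of the difference (adjusted p = 0.0827 and 0.622).

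**Figure D4:**
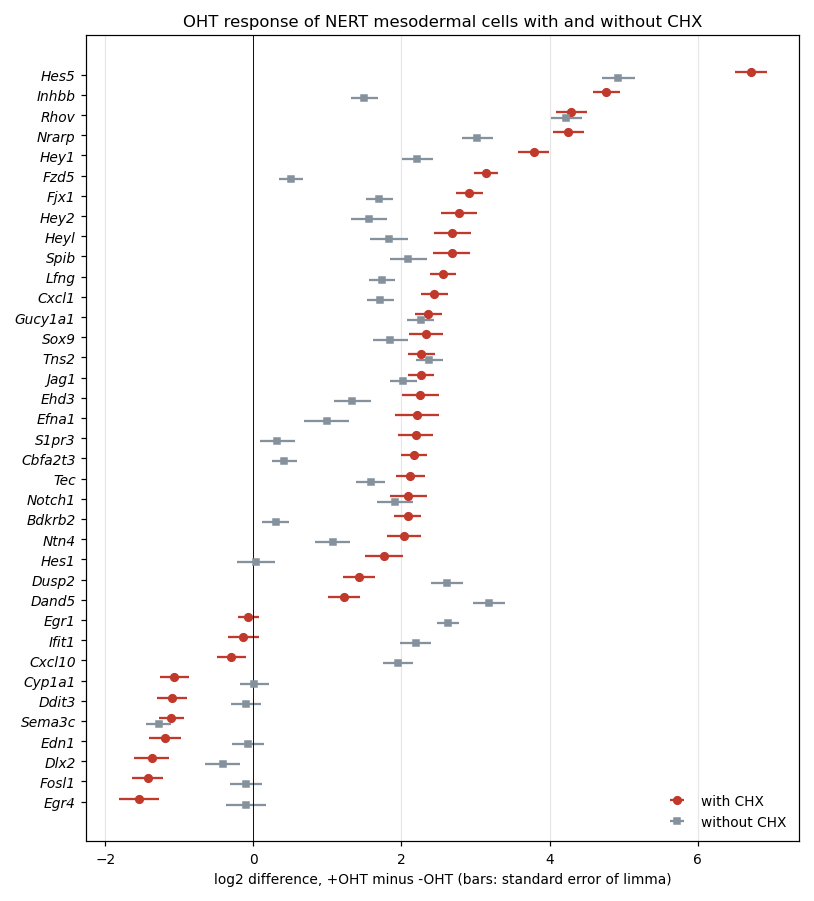
Log2 difference with OHT minus without OHT (horizontal axis, bars are the standard error of limma) with CHX (red circles) and without CHX (grey squares) for the 24 largest rises, the 7 falls and 6 further genes named in the text. Inhbb and Fzd5 respond more with CHX, while Egr1, Ifit1 and Cxcl10 lie near 0 with CHX and near 2 or above without.

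In EB5 control cells, which carry no NERT, the 24 genes changed little with OHT, although these arrays had no CHX and there was 1 of each kind. Their log2 difference ranged from -0.28 to 0.42 in control mesodermal cells and from -0.54 to 0.36 in control ESC, and none reached 1. NERT ESC without CHX were read in 2 culture media, the one for ectoderm (ESCe) and the one for mesoderm (ESCm), again with 1 array of each kind. There the difference of the 24 genes ranged from 0.25 to 3.66 in ESCe (median 1.56) and from 0.10 to 3.70 in ESCm (median 1.48). The same values over all genes were not taken. Outside these 24 genes, Myf5 had 6.34 with OHT and 6.83 without in ESCe, whereas Pax6 had 258 with OHT, against 115 without.

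Over 23 lists, 309 of 358 listed genes were tested, of which 23 rose and 4 fell. Members under the filter are not counted, so these are descriptions of the genes that passed it. The lists other than the Hes and Hey repressors and the study's lineage factors had medians between -0.20 and 0.17. No gene was called among 13 of the BMP pathway, 19 cell cycle regulators, 18 early mesoderm genes, 10 blood and endothelial genes, 20 pluripotency genes and 9 endoderm genes. Aplnr, the apelin receptor, came nearest to a call in the mesoderm list, with 187 and 223 with OHT and CHX, against 108 and 75.8 with CHX alone (adjusted p = 0.0567). Sphingolipid genes gave 2 rises of 13, S1pr3 and Sgms2, a sphingomyelin synthase with 289 and 278 with OHT and CHX, against 132 and 109.6 with CHX alone (adjusted p = 0.035). Sgms2 lost its call without either replicate with CHX alone, replicate 1 with OHT and CHX, or either untreated replicate (adjusted p up to 0.274).

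The neuroectodermal gene Fabp7, a fatty acid binding protein of radial glia, had 394 and 436 with OHT and CHX, against 147 and 157 with CHX alone (1.31 ± 0.17, adjusted p = 0.0039), and lost its call without replicate 1 with CHX alone (adjusted p = 0.0677). Mcam, an adhesion molecule of mural and endothelial cells, had 202 and 239.8, against 97.8 and 105 with CHX alone (0.96 ± 0.17, adjusted p = 0.0315), while the smooth muscle genes Acta2 and Tagln overlapped between the groups. Mcam kept its call only where an array with OHT alone was left out (adjusted p up to 0.297). Dusp2 had 199 and 316, against 76.8 and 78.8 with CHX alone (adjusted p = 0.011), and lost its call without replicate 1 or replicate 2 with CHX alone (0.138 and 0.102).

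**Figure D5:**
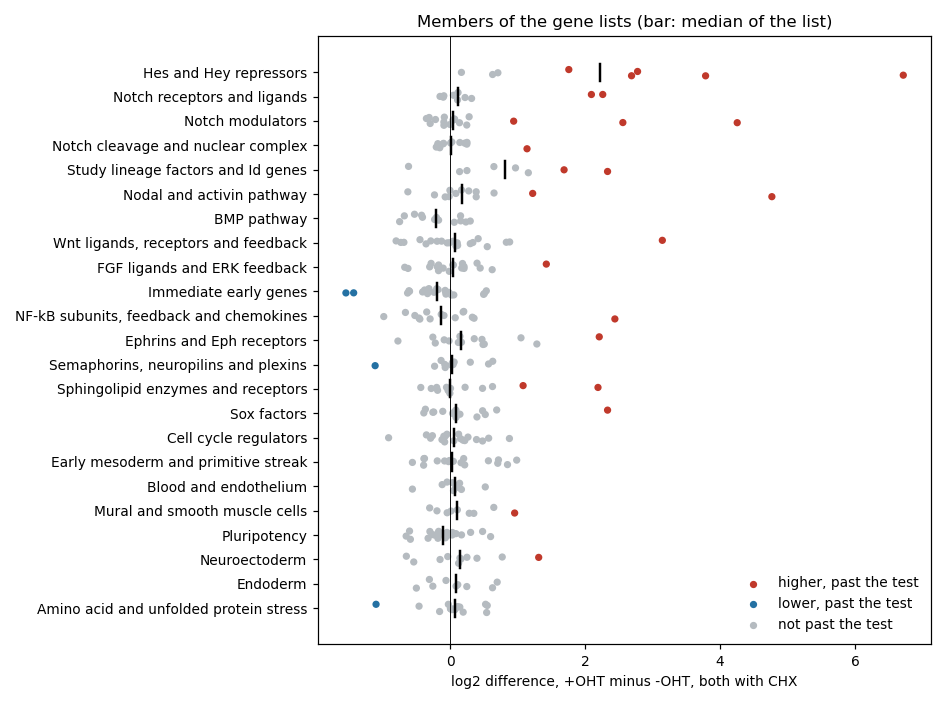
Log2 difference with OHT and CHX minus CHX alone (horizontal axis) of every tested member of the 23 gene lists (rows), red for genes called higher, blue for genes called lower and grey for the rest, with a black bar at the median of each list. The median of the Hes and Hey repressors is 2.22, and those of the other lists, apart from the study's lineage factors, lie between -0.20 and 0.17.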

How the data were processed

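RNA of 16 cell samples was hybridised to Affymetrix mouse arrays. The authors deposited intensities of 45037 probe sets as the dChip model gives them, after scaling every array on an invariant set against control mesoderm +OHT. Values were used as deposited, without detection calls. Of the probe sets 34945 name 1 gene symbol, which gave 18193 genes. limma 3.58.1 (R 4.3.3; lmFit, eBayes with trend, two-sided, Benjamini-Hochberg) was fitted to the 8 NERT mesoderm arrays keeping a probe set where the mean of any group reached 50, leaving 4 residual degrees of freedom. The fit was tested on simulated data. Python 3.11.15, numpy 2.4.6, pandas 2.3.3 and matplotlib 3.10.9 made tables and figures. Named genes are the 24 largest rises, all falls, up to 5 per direction for the difference, and list members. Members, lists and rules were chosen with earlier results of these data known. Alternatives tried were the added constant, the filter, normalization, the arrays fitted, the eBayes trend, a replicate block, the study's fold criteria, all probe sets of a gene, and leaving out arrays. The number of arrays limits the precision.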

Additional observations from a re-analysis of the deposited data

Results flagged for a closer look

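Of the tested probe sets, 6 had an OHT response that differed between NERT mesodermal cells with and without CHX in the test of that difference (0.0125% of probe sets in each direction). Inhbb (difference of the log2 responses 3.27), Fzd5 (2.64) and the second probe set of Hes5 (2.64) responded more with CHX. Egr1 (-2.70), Ifit1 (-2.33) and Cxcl10 (-2.25) responded less with CHX. The Egr1 level with CHX alone (11723 and 12159) was above that with OHT alone (1329.9 and 1273), and so was that of Cxcl10, while Ifit1 with CHX alone (62.4 and 45.5) was below its level with OHT alone (450.3 and 647). With CHX, Egr1 was within 2-fold of the highest intensity on these arrays (16397 to 16997), and whether this limited a further rise was not tested.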

How the results depend on the processing

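The 136 rises and 12 falls over probe sets depended on the arrays more than on the settings. Leaving out 1 of the 8 arrays gave 80 to 230 rises and 2 to 381 falls, and for the difference of the responses 2 to 18 higher and 1 to 30 lower probe sets instead of 3 and 3. The study's fold and difference criteria, without detection calls or a test, gave 210 rises and 26 falls. Falls numbered 2 with 5 added, 4 with no filter on low values and 4 with only the 4 arrays with CHX. With 100 added, 12 probe sets responded more with CHX and 7 less. With all 16 arrays these were 6 and 5, and with no filter 1 responded less. Replicate numbers share no stated origin. Deviations of same-numbered arrays correlated at 0.07 with CHX and 0.51 without, and with the replicate block 173 probe sets rose, 18 fell, 12 responded more with CHX and 7 less.

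Over the 75 gene values tried, no called gene reversed its direction. Genes that were not called could change sign with an array left out, as Pou5f1 (-0.89 to 0.36) and Acta2 (-0.30 to 0.21) did. Of 1229 values 115 lost their call and 14 gained one, where 34 of the 1229 are means over probe sets that carry no call. Of the 7 falls, 6 lost their call with 5 added (Sema3c kept it), 5 with no filter, Egr4 with quantile normalization, and 6 with only the 4 arrays with CHX (Fosl1 kept it). The differences of Ifit1 and Cxcl10 were lost with no filter (0.109 and 0.104), that of Ifit1 also with 5 added (0.0727) and that of Cxcl10 with 100 added (0.0577). Aplnr passed with quantile normalization, all 16 arrays, no trend or the replicate block (0.0391 to 0.0481). Id4 passed with 100 added (0.0282) and with the replicate block (0.0149), under which Id1 and Efna3 passed too (0.0151 and 0.0402). Fos, Sp5 and Tnfaip3 passed as lower only without replicate 2 with OHT and CHX (0.0327, 0.036 and 0.0438).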

Other observations

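A run of zinc finger genes on chromosome 7 was noticed after the values were seen, and it is described here without a test. From Zfp84 to Zfp146 the gene table (GRCm38.p6) lists 15 protein-coding genes of the name Zfp with no other protein-coding gene between them, and 11 had a tested probe set. Of these 11, 3 were called higher with OHT under CHX, against 0.738% of all genes, and 10 were above 0, with a median of 0.59. Zfp82 had 1856 and 1394 with OHT and CHX, against 648 and 500.2 with CHX alone (1.46 ± 0.20, adjusted p = 0.00659). Zfp566 had 1208 and 1192, against 473 and 376 with CHX alone (1.45 ± 0.17, adjusted p = 0.00233), and Zfp383 had 1990 and 1493, against 759 and 843 (1.08 ± 0.20, adjusted p = 0.0455). The run was flat without CHX, where the median was -0.02 and no gene went beyond -0.33 or 0.21. Zfp82 had 147 and 134 with OHT alone and 151 and 167 in untreated cells. The members did not move alike, since Zfp30 (0.97), Zfp27 (0.65) and Zfp74 (0.59) were not called and Zfp84 (-0.04), Zfp940 (0.11) and Zfp790 (0.22) were near 0. Zfp420 was called by 1 of its 2 probe sets (1.32 ± 0.17, adjusted p = 0.0039) and was at 0.00 by the brighter one. Genes of this family share sequence, and how far a probe set reads several of them was not tested.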
